A study of Nicotiana tabacum with 8 samples.

Results

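The salt response of wild-type tobacco leaves was followed by comparing salt-treated wild type (S-WT) with wild type under control conditions (C-WT). The comparison was drawn from 4 of the 8 libraries of the series, 2 S-WT and 2 C-WT libraries, chosen by their genotype and treatment. One library of each group came from Experiment 1 and one from Experiment 2, and the comparison was made within each experiment. The other 4 libraries came from OE2, an *NtCBL5A* overexpressing line carrying the gene behind the constitutive 35S promoter. They were under salt (S-OE2) and control conditions (C-OE2). Their values are set beside those of WT, and they also entered the fit that gave the WT changes and calls.

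The wild type was the cultivar Zhongyan 100, grown in hydroponics on diluted Hoagland's solution. S-WT and S-OE2 plants received 50 mM NaCl on the first day and 100 mM NaCl afterwards, and C-WT and C-OE2 plants received no added NaCl. All plants were about 34 days past germination when sampled after 4 days of treatment, and each library pooled the fifth leaf blades of 4 plants, with the main veins cut out. OE2 was 1 transgenic line, so a feature of that line and an effect of the gene cannot be told apart.

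Sodium chloride reaches leaves through the transpiration stream and acts on them both as an osmotic load and as a toxic ion. Plants limit the damage by moving sodium out of the cytosol or into the vacuole with antiporters, by calcium signalling and by building up compatible solutes. Photosynthesis is among the leaf functions known to decline under salinity, while salt and pathogen signalling share reactive oxygen, calcium and ethylene as messengers.

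Reads were counted per gene, and levels are given as CPM, counts relative to the library total, scaled with the TMM factors of edgeR. Totals on genes were 26682943 and 22600749 in S-WT and 18674594 and 25653836 in C-WT, with 50333 and 50361 genes detected in S-WT and 47694 and 49934 in C-WT. The libraries of a group differed well beyond counting noise, by a chi-square per degree of freedom of 90.5 in S-WT and 88.9 in C-WT. Transcripts of 12 photosynthesis-related genes took 2.94% and 2.05% of the counts in S-WT and 3.36% and 2.70% in C-WT, so green tissue was present. With no other tissue to compare, these shares do not test the label of leaf blade without main veins. Identifiers of other leaf cell types' markers are not given in the sources used here and their share was not checked, and in whole blades fewer cells of a type and less RNA per cell cannot be told apart. The S-WT library of Experiment 1 stood apart by its pathogenesis-related transcripts, and results that rest on it are also given without it. Changes with salt are log2 fold changes from a fit over all 8 libraries with the experiment as a term, each with an approximate standard error. Genes were called at a Benjamini-Hochberg adjusted p below 0.05 in edgeR's quasi-likelihood test.

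Few genes were called in WT leaves under salt stress, and changes across genes correlated weakly between the experiments. Of 44564 genes tested, 17 were upregulated and 22 were downregulated in S-WT, together 0.0875% of the genes (0.0381% up and 0.0494% down). The upregulated genes had log2 fold changes from 1.76 to 6.85 and the downregulated genes from -4.08 to -1.53. Without adjustment, 4294 genes (9.64%) had a p below 0.05, while an edgeR adjusted p below 0.1 was reached by 114 genes (0.256%) and one below 0.2 by 340 genes (0.763%). In OE2 the same salt treatment gave 2554 upregulated genes (5.73%) and 2755 downregulated genes (6.18%). The interaction of salt and genotype, tested gene by gene, was called for 7 genes.

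The 2 experiments agreed for part of the transcriptome only. Both S-WT libraries were above the C-WT library of their own experiment for 29.2% of the genes and below it for 26.2%, and for 43.2% the order was opposite in the experiments. Across genes, the changes of Experiment 1 and Experiment 2 had a Pearson correlation of 0.211 in WT and 0.739 in OE2, as a description over genes that share libraries and depth. Of 34836 genes with a mean of at least 1 CPM, 124 (0.356%) changed upwards and 146 (0.419%) downwards by at least 1 on the log2 scale in both experiments. Another 41 genes were at least 1 higher in Experiment 1 and at least 1 lower in Experiment 2, and 10 genes showed the reverse. With a pseudocount of 0.5 these counts were 77 and 21, and at a mean of at least 10 CPM they were 19 and 3. Changes of at least 1 upwards were seen for 1156 genes in Experiment 1 and 446 in Experiment 2, and downwards for 984 and 635. The plot of all genes by experiment shows a broad cloud around 0 with the 39 called genes in its corners.

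**Figure D1:**
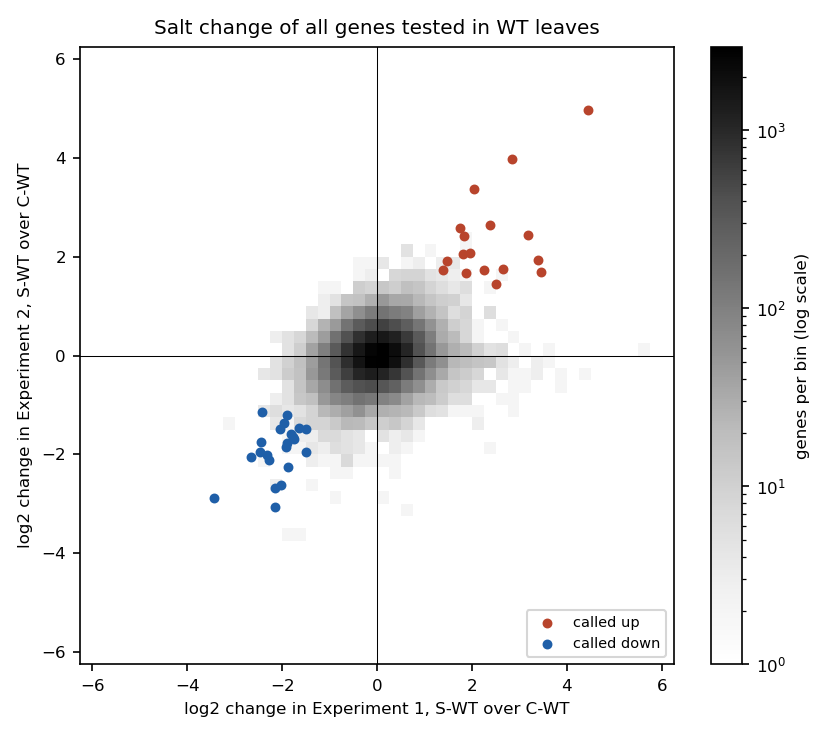
Log2 change of all 44564 genes tested, S-WT over C-WT, in Experiment 1 (horizontal axis) and Experiment 2 (vertical axis), from log2 of TMM-scaled CPM + 1. Grey shading counts genes per bin on a log scale, and the 17 called up and 22 called down are coloured points; all 39 lie on the same side of 0 in both experiments, while the cloud has a correlation of 0.211.

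The number of calls depended on single libraries. Without the C-WT library of Experiment 1 or of Experiment 2, 6 and 4 genes were called, and without the C-OE2 library of Experiment 1 or of Experiment 2, 2 and 1. Leaving out the S-WT library of Experiment 1 gave 18 calls and that of Experiment 2 gave 223, and leaving out either S-OE2 library gave 137. DESeq2 called 207 genes up and 382 down (1.46% of 40465 genes with an adjusted p), among them all 17 and all 22 of the edgeR calls. Scaling by total counts split the calls into 36 up and 12 down, and moved the median change over all genes to 0.30, against 0.03 with TMM factors. The direction of all 39 genes was the same in every one of these settings. They re-use the libraries that gave the calls, so this is not independent evidence.

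Photosynthesis-related genes were lower in WT leaves under salt stress, by a modest amount for each gene. All 12 listed genes were below their C-WT library in both experiments, against 26.2% of all genes tested, and the median log2 fold change was -0.61, against 0.03 over all genes. Experiment 1 gave a median of -0.55 and Experiment 2 one of -0.70. None of the 12 was called by edgeR over all genes (0.0875% of the background), with adjusted p from 0.249 to 0.647 in its quasi-likelihood test, although 10 had an unadjusted p below 0.05 (9.64% of all genes). DESeq2 called 5 of them down, *PsaH*, *PsaD*, *PsbX*, *Lhca3* and *Lhcb4*, with adjusted p from 0.00154 to 0.0141, against 0.944% of all genes. Because the list was picked by the study from these leaf samples, its direction is not independent evidence.

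The photosystem I genes lay close together. *PsaD* (Nitab4.5_0014875g0010, from 7769 to 8383 of its scaffold), the stromal subunit that docks ferredoxin, had 2767 and 1788 CPM in S-WT of Experiments 1 and 2, against 4630 and 3025 CPM in C-WT. Both S-WT libraries were below both C-WT libraries, and the log2 fold change was -0.75 (SE 0.20, n = 2 per group, edgeR adjusted p = 0.274). *PsaH* (Nitab4.5_0000351g0060), a small subunit at the site where light-harvesting complex II docks, had 693 and 340 CPM in S-WT, against 1112 and 552 CPM in C-WT. The groups overlapped for *PsaH*, since the levels of Experiment 1 were higher in both groups, but the change was -0.68 and -0.70 within the experiments. *PsaE* (Nitab4.5_0000385g0230), another stromal subunit, had a log2 fold change of -0.52.

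Among the photosystem II genes, *PsbX* (Nitab4.5_0000073g0060), a small membrane subunit, had 769 and 416 CPM in S-WT, against 1370 and 690 CPM in C-WT. It was lower by 0.83 in Experiment 1 and 0.73 in Experiment 2 on the log2 scale, with overlapping groups. The oxygen-evolving complex genes changed least, with -0.44 for *OEE1* (Nitab4.5_0000108g0110), the manganese-stabilising protein, and -0.35 for *PsbQ* (Nitab4.5_0002345g0070), an extrinsic protein of the same complex. *PsbQ* had 4475 and 2333 CPM in S-WT, against 4729 and 3607 CPM in C-WT. In Experiment 1 it differed by only -0.08, and with total-count scaling that value was 0.19, so the 12 of 12 became 11 of 12.

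The antenna genes included the listed photosynthesis gene whose change differed most between the experiments. *Lhcb3* (Nitab4.5_0012832g0010, from 10325 to 11462 of its scaffold), a component of the trimeric light-harvesting complex II, had 3010 and 296 CPM in S-WT, against 4158 and 944 CPM in C-WT. Its change was -0.47 in Experiment 1 and -1.67 in Experiment 2, and the joint value of -1.11 (SE 0.33, edgeR adjusted p = 0.337) was the lowest of the list. Its level was higher in Experiment 1 than in Experiment 2 in both groups, and the groups overlapped. *Lhca3* (Nitab4.5_0000923g0200), an antenna protein of photosystem I, and *Lhcb4* (Nitab4.5_0011597g0020), a minor antenna protein of photosystem II, had log2 fold changes of -0.77 and -0.68.

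Downstream of the photosystems, *Fd* (Nitab4.5_0004129g0010), the ferredoxin that passes on electrons, had 4418 and 2814 CPM in S-WT, against 5817 and 4542 CPM in C-WT. *GAPA* (Nitab4.5_0010299g0040), a subunit of the Calvin cycle glyceraldehyde-3-phosphate dehydrogenase, had 3908 and 3290 CPM in S-WT, against 5745 and 4510 CPM in C-WT. Neither gene's groups overlapped, and the log2 fold changes were -0.54 for *Fd* and -0.51 for *GAPA*. The *F-ATPase delta subunit* gene (Nitab4.5_0006745g0030), part of an ATP synthase, had -0.51, with -0.69 in Experiment 1 and -0.31 in Experiment 2. In all, 5 of the 12 genes had both S-WT libraries below both C-WT libraries (*PsaD*, *PsaE*, *Fd*, the *F-ATPase delta subunit* and *GAPA*), a pattern that 13.1% of all genes tested also showed.

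In OE2 leaves all 12 photosynthesis-related genes were called down (against 6.18% of all genes), with a median log2 fold change of -1.75, against -0.61 in WT. The interaction, given as the salt effect in WT minus that in OE2, was positive for all 12, from 0.68 for *Fd* to 1.91 for *Lhcb3*. It was called for none of them by edgeR over all genes (0.00224% of all genes were called with a higher effect in WT). Adjusted p ran from 0.154 to 0.474 in its quasi-likelihood test, and unadjusted p from 0.000736 for *PsaH* to 0.0401 for *Fd*. The study took this list from pathways enriched among genes that fell under overexpression combined with salt, on these same libraries. The direction in OE2 and the sign of the interaction are therefore not independent evidence.

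**Figure D2:**
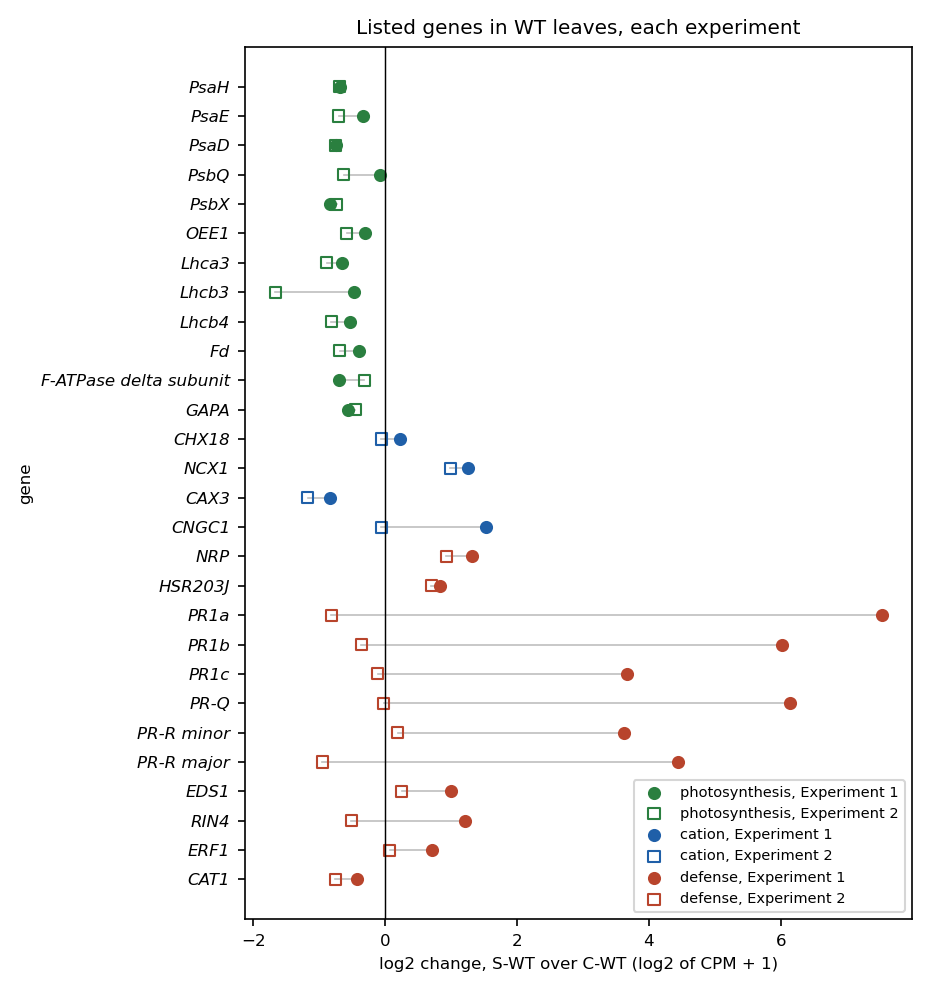
Log2 change of the 28 listed genes in WT leaves, S-WT over C-WT, as log2 of TMM-scaled CPM + 1, with filled circles for Experiment 1 and open squares for Experiment 2, joined by a grey line. The 12 photosynthesis-related genes all sit left of 0 in both experiments, and the pathogenesis-related genes reach as far as 7.53 in Experiment 1 with none above 0.20 in Experiment 2.

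Of the 4 cation homeostasis-related genes, 1 was higher in S-WT in both experiments, 1 was lower in both and 2 went opposite ways in the experiments. *NCX1* (Nitab4.5_0005404g0030, from 20441 to 21829 of its scaffold), a sodium/calcium exchanger, had 4.44 and 2.66 CPM in S-WT, against 1.28 and 0.848 CPM in C-WT. Both S-WT libraries were above both C-WT libraries. The log2 fold change was 1.72 (SE 0.28, n = 2 per group), which edgeR did not call (adjusted p = 0.0899) and DESeq2 did (adjusted p = 0.00499), and it ranged only from 1.67 to 1.78 with single libraries left out.

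*CAX3* (Nitab4.5_0000102g0080), a calcium/proton exchanger that loads the vacuole with calcium, had 27.7 and 21.3 CPM in S-WT, against 50.0 and 49.3 CPM in C-WT. The C-WT libraries were nearly equal and both were above the S-WT libraries, yet the value of -1.01 (SE 0.42) did not pass the threshold (edgeR adjusted p = 0.49). *CNGC1* (Nitab4.5_0000258g0120), a cyclic nucleotide-gated cation channel, had 81 and 0 counts in S-WT, against 7 and 1 counts in C-WT. *CHX18* (Nitab4.5_0006998g0030), of the cation/proton exchanger family, had 4 and 0 counts in S-WT, against 0 and 1 counts in C-WT. *CNGC1* was high in the S-WT library of Experiment 1 only, *CHX18* was close to undetected, and no change was called for either. The list's median of 1.56 rested on the S-WT library of Experiment 1 and was -2.03 without it, and with the 4 WT libraries alone it was 0.34. None of the 4 was called by edgeR (against 0.0875% of all genes), 2 had an unadjusted p below 0.05 (9.64%), and DESeq2 called 1 up, *NCX1* (0.512%). The study chose this list on the same samples as well, so the absence of calls in WT may partly follow from its selection. By RT-qPCR it reported *CAX3* as downregulated in WT under salt, and more strongly so in the overexpressing lines.

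Defense-related genes were mostly higher in S-WT of Experiment 1 and divided in direction in Experiment 2. The median log2 fold change of the 12 genes was 2.02, with 2.47 in Experiment 1 and -0.07 in Experiment 2, and it was -0.25 without the S-WT library of Experiment 1. Leaving out C-WT of Experiment 1 gave 1.26, and the fit gave 1.00 with the 4 WT libraries alone. Of the 12, 5 were higher in S-WT in both experiments (against 29.2% of all genes), 1 was lower in both and 6 went opposite ways (against 43.2%). None was called by edgeR over all genes, with adjusted p from 0.253 to 0.814 in its quasi-likelihood test, while 10 had an unadjusted p below 0.05 (9.64% of all genes). DESeq2 called 1 up, *NRP* (0.512%). The study picked most of the list on these samples, apart from *NRP* and *HSR203J*, which it took over as known markers. Part of that selection kept genes changed by salt in OE2 but not in WT. For the genes so picked, the absence of calls in WT may partly follow from it.

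The pathogenesis-related transcripts were high in 1 of the 4 WT libraries. *PR-Q* (Nitab4.5_0003207g0080), an acidic chitinase, had 286 and 4.37 CPM in S-WT, against 3.05 and 4.44 CPM in C-WT. *PR1a* (Nitab4.5_0003771g0010), a secreted antimicrobial protein widely used as a marker of salicylic acid signalling, had 184 and 0.646 CPM in S-WT, against 0 and 1.90 CPM in C-WT. For both genes the S-WT library of Experiment 1 was far above the other 3, which did not differ in a shared direction. *PR1b*, *PR1c* and the thaumatin-like *PR-R major* had the same shape, with changes of 6.02, 3.67 and 4.45 in Experiment 1 and of -0.36, -0.11 and -0.95 in Experiment 2. *PR-R minor* had 3.62 and 0.20. With S-WT of Experiment 1 left out, the joint log2 fold change was 0.22 for *PR-Q* (4.54 with it), -0.87 for *PR1a* (5.48 with it) and 0.071 for *PR-R minor* (3.46 with it). The *PR1* genes belong to one family whose copies can share reads, and how reads matching several genes were counted is not given in the sources used here, so their separate values are uncertain.

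The cell death markers were steadier than the *PR* genes. *NRP* (Nitab4.5_0000798g0120), a stress-responsive gene tied to cell death signalling in soybean, had 50.2 and 57.4 CPM in S-WT, against 19.5 and 29.6 CPM in C-WT. Its groups did not overlap, and its log2 fold change was 1.13 (SE 0.28), with adjusted p = 0.253 in edgeR and 0.0258 in DESeq2. *HSR203J* (Nitab4.5_0002719g0120), a tobacco marker of the hypersensitive response, had 11.8 and 15.4 CPM in S-WT, against 6.18 and 9.09 CPM in C-WT. The groups were again apart, by 0.83 on the log2 scale (SE 0.24, edgeR adjusted p = 0.327).

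Among the signalling genes, *EDS1* (Nitab4.5_0002101g0050), a lipase-like regulator of immune receptor signalling, had 12.8 and 6.38 CPM in S-WT, against 5.89 and 5.21 CPM in C-WT. *ERF1* (Nitab4.5_0010541g0010), an ethylene response factor, had 3.42 and 0.684 CPM in S-WT, against 1.70 and 0.606 CPM in C-WT. *RIN4* (Nitab4.5_0003020g0010), a membrane protein guarded by immune receptors in Arabidopsis, had 3.13 and 0.380 CPM in S-WT, against 0.781 and 0.969 CPM in C-WT. In each of the 3 genes the S-WT library of Experiment 1 was highest, and only *EDS1* had groups that did not overlap. Without that library the log2 fold change was 0.35 for *EDS1* (0.72 with it), 0.23 for *ERF1* (0.67 with it) and -0.97 for *RIN4* (0.57 with it). *CAT1* (Nitab4.5_0009821g0010), a catalase that removes hydrogen peroxide, had 560 and 479 CPM in S-WT, against 752 and 811 CPM in C-WT. It was the only listed defense gene with both S-WT libraries below both C-WT libraries, by a log2 fold change of -0.61 (SE 0.23, edgeR adjusted p = 0.456).

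In OE2, 11 of the 12 defense-related genes were called up (against 5.73% of all genes), with a median log2 fold change of 6.67, against 2.02 in WT. The interaction was negative for all 12, from -10.93 to -1.22, and edgeR called none over all genes. Adjusted p ran from 0.133 to 0.713 in its quasi-likelihood test, and unadjusted p from 0.000364 for *ERF1* to 0.176 for *PR1c*. Of the 28 listed genes, 24 had an unadjusted p below 0.05 for the interaction in edgeR, and the share over all genes is not given here. Most of the 28 were chosen by the study on these same libraries, so this count is not evidence of a difference between genotypes. The study took most of the defense list from pathways enriched among genes that rose under overexpression combined with salt, on these same libraries. The OE2 and interaction directions of those genes are therefore not independent evidence. *CAT1* had opposite signs, with -0.61 in WT and 0.82 in OE2. Neither change nor the interaction was called by edgeR's quasi-likelihood test (adjusted p = 0.456, 0.0517 and 0.184).

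**Figure D3:**
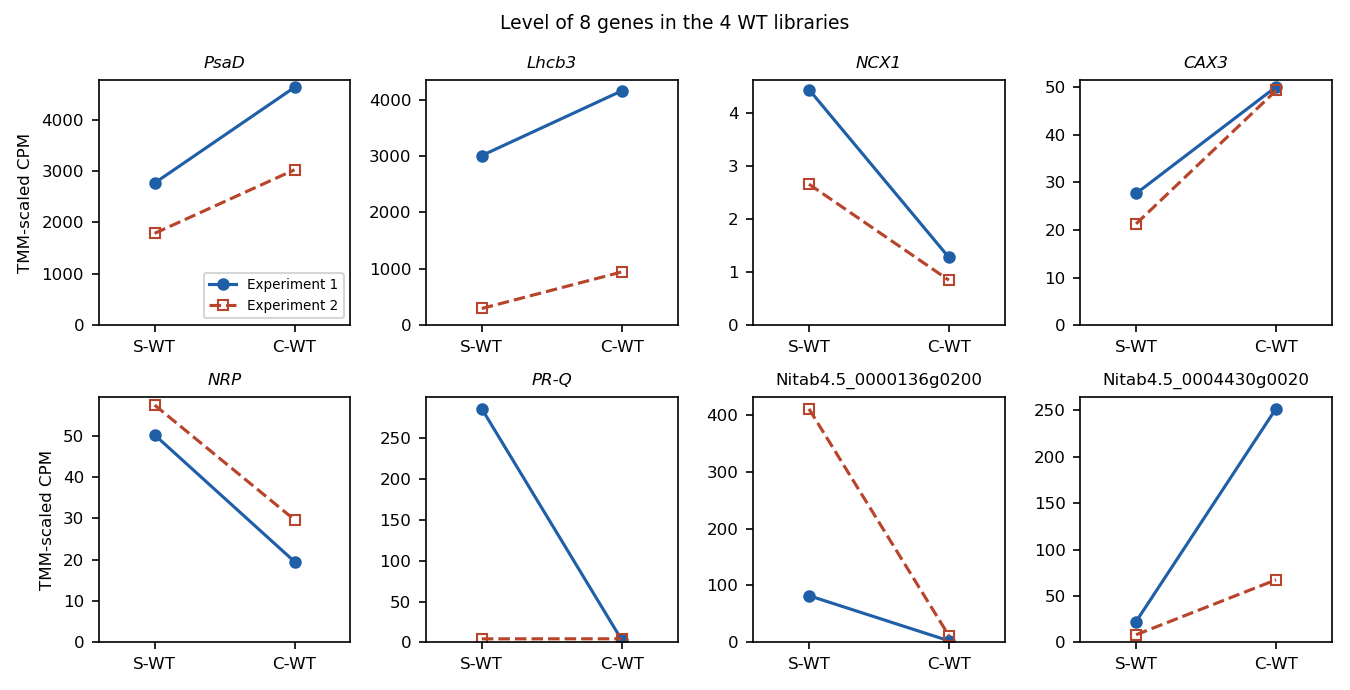
TMM-scaled CPM of 8 genes in the 4 WT libraries, with S-WT left of C-WT in each panel and one line per experiment (solid with circles for Experiment 1, dashed with squares for Experiment 2). *PsaD*, *Lhcb3* and *CAX3* are lower and *NCX1* and *NRP* are higher in S-WT in both experiments, *PR-Q* is high only in S-WT of Experiment 1, and Nitab4.5_0000136g0200 and Nitab4.5_0004430g0020 are called genes.

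The 17 upregulated genes carry identifiers without a name in the sources used here, so they are described by level. Their groups did not overlap for any of the 17, a pattern found for 16% of all genes tested, and they were called on these same libraries. The gene with the highest mean CPM in S-WT was Nitab4.5_0000136g0200 (from 643506 to 644239 of its scaffold, minus strand), with 82.1 and 410 CPM in S-WT, against 2.84 and 12.0 CPM in C-WT. Both experiments gave a rise of similar size, 4.44 and 4.98 on the log2 scale, although the level of Experiment 2 was higher in both groups. The log2 fold change was 4.97 (SE 0.46, edgeR adjusted p = 0.02), and it was 5.33 in OE2.

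Among the genes called up, Nitab4.5_0006133g0030 (from 112959 to 113507) had the highest fitted change. It had 129 and 66 counts in S-WT, against 0 and 1 counts in C-WT. The ratio of its summed scaled counts was 149.6, with an exact 95% interval from 26.5 to 5940 that covers counting error only. Its adjusted p was 0.0143 in edgeR. Nitab4.5_0007712g0010 had 13.9 and 2.47 CPM in S-WT, against 0.355 and 0.0808 CPM in C-WT, and Nitab4.5_0000166g0100 had 15.3 and 3.76 CPM in S-WT, against 0.568 and 0.242 CPM in C-WT. Both genes were near the floor in C-WT and higher in Experiment 1, with log2 fold changes of 5.09 (SE 0.66) and 4.40 (SE 0.44).

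Some other upregulated genes had higher levels in Experiment 2. Nitab4.5_0000723g0160 had 10.8 and 44.3 CPM in S-WT, against 0.639 and 1.86 CPM in C-WT. Nitab4.5_0006701g0020 had 16.1 and 31.8 CPM in S-WT, against 2.27 and 4.28 CPM in C-WT. Their log2 fold changes were 4.31 (SE 0.55) and 2.85 (SE 0.29), and no S-WT library of either gene overlapped C-WT. Nitab4.5_0008525g0010, Nitab4.5_0010009g0010 and Nitab4.5_0002394g0060 had log2 fold changes of 3.65, 3.73 and 2.72, with edgeR adjusted p of 0.0143, 0.0359 and 0.02.

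The gene Nitab4.5_0000040g0410 (from 1861272 to 1862117) was the only one of the 17 that was not also called up in OE2. It had 4.32 and 10.2 CPM in S-WT, against 0.284 and 0.0808 CPM in C-WT, and 1.55 and 2.41 CPM in S-OE2, against 0.673 and 0.302 CPM in C-OE2. Its log2 fold change was 5.44 in WT (SE 0.73, edgeR adjusted p = 0.0464) and 2.06 in OE2 (edgeR adjusted p = 0.0595). The difference of 3.38 between the genotypes was not called (SE 1.00, edgeR adjusted p = 0.284).

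The 22 downregulated genes were the larger group and included the steadiest single call. Nitab4.5_0004430g0020 (from 17024 to 17422 of its scaffold, minus strand) had 22.5 and 8.28 CPM in S-WT, against 252 and 67.5 CPM in C-WT. The S-WT libraries were both below the C-WT libraries, with changes of -3.43 in Experiment 1 and -2.88 in Experiment 2 on the log2 scale. The log2 fold change was -3.25 (SE 0.24) and had the smallest adjusted p of all genes in edgeR, 0.00976. It was the only one of the 39 genes called with each of the 8 libraries left out in turn, while the others were called in 2 to 5 of these 8 fits.

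Among the genes called down, a transcript from the authors' own assembly had the lowest fitted change. It lies on scaffold Nitab4.5_0001401 (from 165695 to 194624, minus strand). It had 0.617 and 0.342 CPM in S-WT, against 6.18 and 10.2 CPM in C-WT, a log2 fold change of -4.08 (SE 0.51, edgeR adjusted p = 0.0394). Nitab4.5_0001601g0050 had 0.370 and 0.760 CPM in S-WT, against 5.82 and 6.10 CPM in C-WT. In both genes the C-WT libraries were the high ones and the experiments were alike. Nitab4.5_0000493g0080, Nitab4.5_0002846g0010 and Nitab4.5_0000171g0010 had log2 fold changes of -3.23, -3.14 and -2.79, with C-WT levels between 1.70 and 15.6 CPM.

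A pair of neighbouring genes fell together. Nitab4.5_0002712g0010 (from 41553 to 41996, minus strand) and Nitab4.5_0002712g0020 (from 42745 to 43648, plus strand) lie next to each other on one scaffold in opposite orientation. Nitab4.5_0002712g0010 had 2.14 and 0.418 CPM in S-WT, against 9.73 and 3.43 CPM in C-WT, and a log2 fold change of -2.56 (SE 0.33). Nitab4.5_0002712g0020 had 7.65 and 0.798 CPM in S-WT, against 37.6 and 10.5 CPM in C-WT, and a log2 fold change of -2.86 (SE 0.39). In both genes the levels of Experiment 1 were higher in both groups, and no S-WT library reached a C-WT library. This was the only one of 38 scaffolds with more than 1 called gene.

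For 4 of the 22 genes the S-WT and C-WT libraries overlapped, and their levels differed strongly between the experiments. Nitab4.5_0000495g0040 had 714 and 9.92 CPM in S-WT, against 2632 and 51.1 CPM in C-WT, and Nitab4.5_0029285g0010 had 445 and 3.72 CPM in S-WT, against 1660 and 15.1 CPM in C-WT. Within Experiments 1 and 2 the change was -1.88 and -2.25 for Nitab4.5_0000495g0040, and -1.90 and -1.77 for Nitab4.5_0029285g0010, on the log2 scale. The other 18 genes did not overlap, against 13.1% of all genes tested, and were called on these same libraries.

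**Figure D4:**
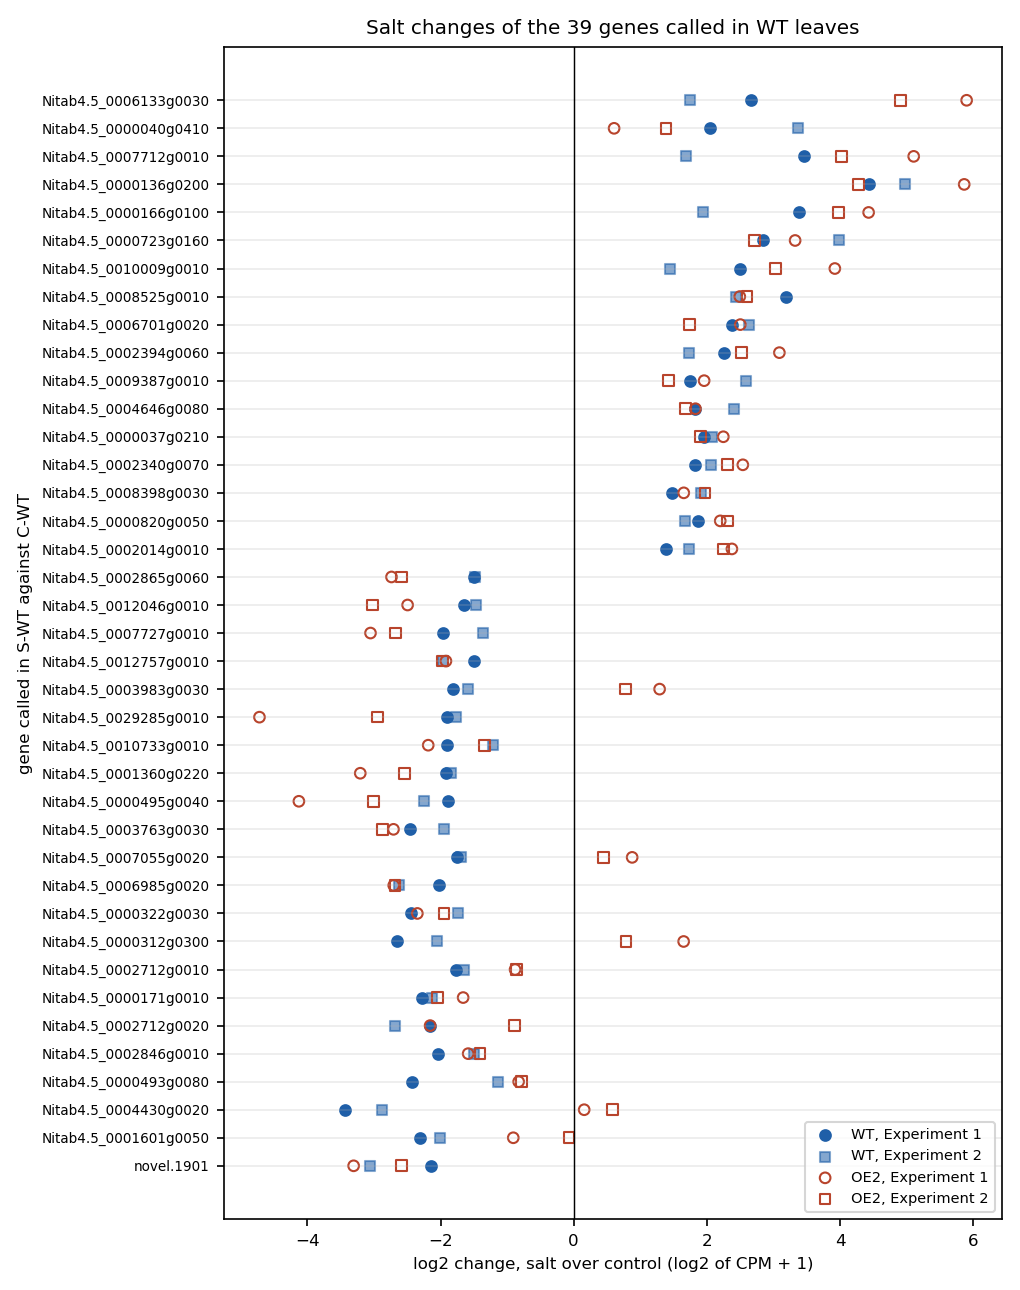
Log2 change, salt over control, as log2 of TMM-scaled CPM + 1, of the 39 genes called in WT leaves, with filled symbols for WT and open symbols for OE2 (circles for Experiment 1, squares for Experiment 2). All 39 genes have the same sign in both WT experiments, and 4 of the 22 downregulated genes lie right of 0 in OE2.

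Most of the genes called in WT moved the same way in OE2. The OE2 contrast uses other libraries, but both come from one fit that shares the experiment term and the spread, and OE2 libraries move the WT estimates. Of the 17 upregulated genes, 17 were higher in both OE2 experiments (against 35.3% of all genes) and 16 were called up there, against 5.73% of all genes. The median log2 fold change was 2.85 in WT and 2.52 in OE2, and 11 of the 17 had the larger change in OE2. The interaction was called for none of the 17 by edgeR or by DESeq2. In edgeR, 4 of the 17 had an unadjusted p below 0.05 for it, against 15 of the 22 downregulated genes. The share over all genes is not given here.

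Of the 22 downregulated genes, 18 were lower in both OE2 experiments (against 33.1% of all genes) and 17 were called down there, against 6.18% of all genes. The other 4 were higher in S-OE2 than in C-OE2, and 2 of them, Nitab4.5_0000312g0300 and Nitab4.5_0003983g0030, were called up. Nitab4.5_0000312g0300 (from 874008 to 874400) had 11.7 and 3.72 CPM in S-WT, against 78.9 and 18.7 CPM in C-WT, and 150 and 29.1 CPM in S-OE2, against 47.2 and 16.5 CPM in C-OE2. Its log2 fold change was -2.55 in WT and 1.26 in OE2. Nitab4.5_0004430g0020, the steadiest call in WT, had 182 and 55.7 CPM in S-OE2, against 163 and 36.9 CPM in C-OE2, a log2 fold change of 0.37 that was not called. Nitab4.5_0003983g0030 had -1.86 in WT and 1.10 in OE2, and Nitab4.5_0007055g0020 had -2.21 in WT and 0.78 in OE2.

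The interaction was called by edgeR for 3 of the 22 downregulated genes, against 0.0135% of all genes with a lower and 0.00224% with a higher effect in WT. The salt effect in WT minus that in OE2 was -3.81 (SE 0.36) for Nitab4.5_0000312g0300 and -3.62 (SE 0.31) for Nitab4.5_0004430g0020 on the log2 scale, both with adjusted p = 0.0315 in edgeR. Nitab4.5_0029285g0010 fell in both genotypes, with log2 fold changes of -1.96 in WT and -4.67 in OE2, and its interaction was 2.71 (SE 0.29, edgeR adjusted p = 0.0335). DESeq2 called the interaction for 10 of the 22, against 1.14% of all genes with a higher and 1.08% with a lower effect in WT. The WT calls were the basis for choosing these genes, and the interaction uses the same WT libraries.

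Some genes that were not called also changed by a large amount in both experiments. Nitab4.5_0018164g0010 had 61.9 and 6.27 CPM in S-WT, against 0.568 and 0.566 CPM in C-WT. Nitab4.5_0004874g0010 had 128 and 32.4 CPM in S-WT, against 11.2 and 2.42 CPM in C-WT. Nitab4.5_0000982g0200 had 1331 and 10.9 CPM in S-WT, against 5037 and 155 CPM in C-WT, and was lower in Experiment 2 in both groups. The smaller of the 2 within-experiment changes was 2.22, 3.29 and -1.92 on the log2 scale for these genes, with edgeR adjusted p of 0.124, 0.136 and 0.0594.

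The transcripts with the highest CPM in S-WT, a measure that also rises with gene length, were not called. The highest, a transcript of the authors' assembly without a Nitab4.5 identifier, had 25498 and 15276 CPM in S-WT, against 30644 and 23847 CPM in C-WT, a log2 fold change of -0.45. Nitab4.5_0009855g0010, Nitab4.5_0000397g0010, Nitab4.5_0004979g0020 and another assembled transcript followed in CPM, with log2 fold changes between -0.49 and -0.24. All 5 were called down in OE2, against 6.18% of all genes.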

How the data were processed

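Per the labels and the study's methods, the authors aligned reads with Hisat2 2.0.5, assembled further transcripts with StringTie 1.3.3b and counted reads per gene with featureCounts 1.5.0-p3, and the deposited table holds raw counts and FPKM values for 81378 genes, 11878 of them from their assembly. The deposited FPKM values were not tested. The assembly is Nitab4.5, and the gene names of 28 identifiers come from the study. Strandedness and the treatment of multi-mapping reads are not given in the sources used here.

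With R 4.3.3 and edgeR 4.0.16, counts were filtered (filterByExpr, 44564 genes left), scaled by TMM and tested with glmQLFTest over 8 libraries, with group and experiment as terms and Benjamini-Hochberg adjustment. Standard errors are the absolute log2 fold change over the square root of F. Within-experiment changes are log2(CPM + 1), which understates low genes. Total counts were 18674594 to 31672013 per library, and the biological coefficient of variation was 24.2%. The study compared groups within each of 2 independent experiments, so the experiment pairs the libraries, and libraries of one experiment deviated together from their group means (correlations across genes from 0.468 to 0.641 over 6 pairs of groups). With 2 pooled libraries per group, p-values rest on these experiments alone.

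Genes named were the 28 with identifiers in the study, the 10 called genes with the largest change in each direction, 5 uncalled genes in each direction with the largest change in both experiments, 3 in each pattern of opposite change and the 5 most abundant in S-WT. Further called genes are named after their values were seen. Planned lists of other salt-related and marker genes were left out, since identifiers are not paired with names. The members and lists were chosen with earlier results of these data known. Alternatives were DESeq2 1.42.0, no filter, total-count and median-ratio scaling, no experiment term and the 4 WT libraries alone. Others were a minimum log2 fold change of 1, each experiment alone, another pseudocount or CPM minimum, and each library left out. Each experiment alone was tested with edgeR's likelihood ratio test, not glmQLFTest, with the spread of each gene borrowed from 8 libraries. The scripts were tested on simulated data.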

Additional observations from a re-analysis of the deposited data

Results flagged for a closer look

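The salt effect differed between WT and OE2, by edgeR's test of the interaction, for 3 genes described above. Its value, the salt effect in WT minus that in OE2 on the log2 scale, was -3.81 for Nitab4.5_0000312g0300, which fell in WT and rose in OE2. It was -3.62 for Nitab4.5_0004430g0020, which fell in WT and had a log2 fold change of 0.37 in OE2 that was not called. It was 2.71 for Nitab4.5_0029285g0010, which fell in both genotypes and by more in OE2. All 3 are also called by DESeq2, and no cause was tested.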

How the results depend on the processing

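All 39 calls in WT kept their sign in every alternative, while their number moved. The alternatives re-use the libraries that gave the calls, and all 39 had the same sign in both experiments. A kept sign is therefore not independent evidence. Genes called up and down in WT (17 and 22) were 207 and 382 with DESeq2, 156 and 167 with no filter, 36 and 12 with total counts, 3 and 1 with a minimum log2 fold change of 1, 145 and 100 in Experiment 1 alone and 80 and 91 in Experiment 2 alone. With the 4 WT libraries alone 14 were called up and 11 down, among them 8 of the 17 and 8 of the 22. Without the replicate block, that is with the pairing by experiment ignored, 0 and 0 were called by edgeR in WT, with 1849 genes at an unadjusted p below 0.05, 163 and 100 in OE2, and 0 and 0 for the interaction, with 1910 at an unadjusted p below 0.05. Leaving out single libraries gave 0 to 171 up and 1 to 73 down in WT, 569 to 2697 and 705 to 2890 in OE2, and 0 to 51 and 0 to 203 for the interaction. OE2 calls were 8375 and 1400 with total counts and 960 and 526 with a minimum change of 1, and 1277 were called down in Experiment 2 alone. Interaction calls (1 and 6) were 421 and 400 with DESeq2, 131 and 226 with no filter, 6 and 36 with total counts, 0 and 0 with a minimum change of 1, 110 and 95 in Experiment 1 alone and 22 and 260 in Experiment 2 alone. The counts for each experiment alone come from a likelihood ratio test with borrowed spread, so they are not comparable with the main counts. The causes were not tested.

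The defense median in WT was 1.00 with the 4 WT libraries alone, -0.39 in Experiment 2 alone and from -0.25 to 2.996 with single libraries left out. The photosynthesis median was -0.34 with total counts and from -0.71 to -0.56 with single libraries left out. The cation median was 0.34 with the 4 WT libraries alone, 2.26 in Experiment 1 alone and -2.30 in Experiment 2 alone. It ran from -2.03 to 2.15 with single libraries left out. Its negative values lean on *CHX18* and *CNGC1*, each with 0 counts in S-WT of Experiment 2, against 1 in C-WT. Genes that changed by at least 1 in both experiments numbered 50 up and 80 down at a mean of at least 10 CPM.

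In Experiment 2 alone the log2 fold change changed sign, to -1.55 for *PR1a*, -6.07 for *PR1b*, -4.31 for *PR1c*, -0.024 for *PR-Q*, -1.31 for *PR-R major*, -1.34 for *RIN4*, -3.38 for *CHX18* and *CNGC1*, -2.41 for Nitab4.5_0000716g0240, 1.76 for Nitab4.5_0004810g0010 and 1.54 for Nitab4.5_0002827g0080. In Experiment 1 alone it did so for an assembled transcript (4.39), Nitab4.5_0001477g0080 (2.85), Nitab4.5_0000215g0030 (-2.05) and Nitab4.5_0000397g0010 (0.18), and with total counts for Nitab4.5_0004810g0010 (0.021), Nitab4.5_0002827g0080 (0.11) and Nitab4.5_0000397g0010 (0.033). With single libraries left out, the values ranged from -0.87 to 14.3 for *PR1a*, -5.09 to 12.84 for *PR1b*, -3.38 to 10.54 for *PR1c*, -1.07 to 4.54 for *PR-R major*, -0.97 to 1.53 for *RIN4*, -2.70 to 4.36 for *CHX18*, -5.26 to 4.04 for *CNGC1*, -5.62 to 3.64 for that transcript, -1.97 to 1.94 for Nitab4.5_0000716g0240, -6.15 to 2.15 for Nitab4.5_0001477g0080, -1.61 to 1.28 for Nitab4.5_0004810g0010, -1.68 to 0.99 for Nitab4.5_0002827g0080, -2.08 to 2.38 for Nitab4.5_0000215g0030 and -0.55 to 0.11 for Nitab4.5_0000397g0010. None of these genes was called in WT. *CHX18* rests on few counts. In Experiment 2, *PR1b*, *PR1c*, *CNGC1* and *CHX18* had 0 counts in S-WT, against 7, 2, 1 and 1 counts in C-WT. Their fitted values there are therefore not reliable in size. As log2(CPM + 1) their changes in Experiment 2 were -0.36, -0.11, -0.06 and -0.06.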

Other observations

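Some genes changed in opposite directions in the WT experiments. Nitab4.5_0000716g0240 had 25.3 and 2.09 CPM in S-WT of Experiments 1 and 2, against 4.12 and 11.1 CPM in C-WT. Nitab4.5_0004810g0010 had 41.0 and 56.1 CPM in S-WT, against 181 and 16.6 CPM in C-WT, and Nitab4.5_0002827g0080 had 40.3 and 56.5 CPM in S-WT, against 170 and 19.4 CPM in C-WT. In these last 2 genes the C-WT library of Experiment 1 was highest and that of Experiment 2 lowest, and no joint change was called by edgeR.

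A few transcripts were counted in one WT condition only. With 0 counts in both C-WT libraries and at least 10 in both S-WT libraries there were 10 genes, and their level was at least 5.12-fold to at least 32.2-fold higher in S-WT, against a floor of 3 counts over the C-WT group. Nitab4.5_0016891g0010 had 42 and 21 counts in S-WT and 476 and 89 counts in S-OE2, with 0 counts in all 4 control libraries. Nitab4.5_0002529g0080 had 14 and 112 counts in S-WT and 77 and 53 counts in S-OE2, again with 0 counts in all 4 control libraries. In the other direction, an assembled transcript had 0 counts in both S-WT libraries, against 10 and 14 counts in C-WT, and a second had 0, against 13 and 14 counts. None of these 12 genes was called by edgeR, with adjusted p from 0.0983 to 0.324 in its quasi-likelihood test.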
